A study of Rattus norvegicus with 4 samples.

Results

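The heat shock proteins and DnaJ chaperones, the rat genes whose symbols begin with Hspa, Hspb, Hspd, Hspe, Hsph, Hsp90 or Dnaj, were followed in soleus muscle. Binding proteins with similar symbols, such as Hspbp1 and Hspbap1, were left out. The rule named 62 members among the 26633 genes and transcripts on the array, represented by 78 probes. Of these, 56 members were well above background on all 4 arrays and the other 6 on none. Among all 26633 genes and transcripts, 14417 were well above background on all 4 arrays. Expression was measured on one-colour Agilent arrays in male rats, in the soleus, a calf muscle rich in slow fibres that holds posture. The 4 groups were regenerated overloaded muscle from rats aged 18 weeks, overloaded muscle (labelled as hypertrophied) from rats aged 18 weeks, regenerated muscle from rats aged 16 weeks, and normal muscle from rats aged 16 weeks. Regenerated muscle was collected 8 weeks after CTX was injected, an agent that the labels leave as letters. How the load was raised, and how long after the injection regenerated overloaded muscle was collected, are not stated in the labels. RNA of 6 muscles was mixed for each group and hybridised to 1 array, so every group has n = 1, no difference has a replicate check and no test between groups was possible.

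Heat shock proteins are molecular chaperones. Hsp70 proteins (the Hspa genes) bind exposed hydrophobic stretches of unfolded proteins in cycles driven by ATP, DnaJ proteins hand them their clients and stimulate the ATPase, and Hsp110 proteins (Hsph1, Hspa4) exchange the nucleotide. Hsp90 acts later, on nearly folded clients such as kinases and steroid receptors, while the small heat shock proteins (Hspb) hold unfolding proteins without ATP and Hsp60 with Hsp10 (Hspd1, Hspe1) forms the folding chamber of mitochondria. In slow muscle, small heat shock proteins are abundant and sit partly at the Z-disc, where, with Hspa8 and the co-chaperone Bag3, they take part in turning over mechanically damaged proteins. Many of these genes are switched on by heat shock factor 1 through heat shock elements, and those of the endoplasmic reticulum (ER) by the unfolded protein response through ER stress elements.

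Promoter sequence from RefSeq on build GRCr8, from 250 bases before to 50 bases after the gene start, was at hand for 49 of the 62 members. The heat shock element was searched on both strands as alternating units with NN between them (GAA NN TTC NN GAA or TTC NN GAA NN TTC), and it occurred in 5 of the 49 windows (10.2%), against 0.798% of all 33469 promoter windows. The 5 genes were Hspa8, the constitutive cytosolic Hsp70, Hsph1, the Hsp110 of the cytosol, Hspd1 (Hsp60), Hspe1 (Hsp10) and Dnaja1, a cytosolic DnaJ protein. These stretches are shown because they set apart members with a full heat shock element, the capitals mark the matches, and overlapping matches run on as 1 block.
Hspa8 (chr8:50080276-50080496, plus strand): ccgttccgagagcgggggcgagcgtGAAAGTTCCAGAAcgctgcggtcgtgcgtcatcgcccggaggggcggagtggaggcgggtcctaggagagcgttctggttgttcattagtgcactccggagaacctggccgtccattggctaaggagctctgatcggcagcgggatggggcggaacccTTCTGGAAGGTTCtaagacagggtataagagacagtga
Hsph1 (chr12:10427307-10427369, plus strand): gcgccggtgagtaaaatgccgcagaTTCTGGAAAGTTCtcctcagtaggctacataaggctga
Hspe1 (chr9:64084237-64084304, plus strand): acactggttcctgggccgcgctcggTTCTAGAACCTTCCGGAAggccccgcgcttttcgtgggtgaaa
Hspd1 (chr9:64084237-64084287, minus strand): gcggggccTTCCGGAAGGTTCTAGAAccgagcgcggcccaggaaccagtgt
Dnaja1 (chr5:60638388-60638450, plus strand): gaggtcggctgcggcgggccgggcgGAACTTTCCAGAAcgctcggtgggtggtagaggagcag
The Hspd1 and Hspe1 genes lie head to head, the stretches shown for them share 51 bases, and the element is the same one read from either strand. In Dnaja1 the match begins 9 bases after the start. The ER stress element, CCAAT and CCACG with 9 bases between them on either strand, occurred in 3 of the 49 windows (6.12%), against 0.0657% of all windows. Its carriers were Hspa5 (BiP, the Hsp70 of the ER), Hsp90b1 (Grp94, the Hsp90 of the ER) and Dnajc3, an ER DnaJ protein that works with BiP. They are shown to set them beside the first set, with the matches in capitals.
Hspa5 (chr3:38452948-38453016, plus strand): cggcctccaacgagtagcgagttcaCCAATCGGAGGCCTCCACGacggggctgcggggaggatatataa
Hsp90b1 (chr7:23012322-23012494, minus strand): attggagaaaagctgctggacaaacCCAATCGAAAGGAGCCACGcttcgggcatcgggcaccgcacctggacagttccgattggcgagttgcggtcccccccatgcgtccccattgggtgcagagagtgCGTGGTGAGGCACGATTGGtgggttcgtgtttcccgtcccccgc
Dnajc3 (chr15:102432509-102432577, plus strand): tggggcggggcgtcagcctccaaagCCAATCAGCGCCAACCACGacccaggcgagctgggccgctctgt
A match is a description of letters in the window and not a measured binding site.

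On the array level, 68.1% of spots were well above background for regenerated overloaded, 70.6% for overloaded, 68.9% for regenerated and 60.4% for normal muscle, and the median local background was 32 intensity units on both overloaded arrays, 33 on the regenerated and 44 on the normal array. Of 11 slow-fibre marker genes of the soleus, 10 had a probe and all 10 were above background on every array. Slide row and age went with overload, since both overloaded groups lay in row 2 and came from older rats, so that overload, age and slide row cannot be told apart. Values below are relative signals, the processed signal divided by the array's 75th percentile. Differences are on the log2 scale with a technical standard error (SE) from repeated spots, which does not cover variation between animals. Over the 56 members this SE had a median of 0.0591 in overloaded against normal muscle, and its extremes over the comparisons were 0.0260 and 0.571. Since relative signals depend on each probe, they are compared between arrays and not between genes. In RNA of whole muscle, fewer cells of a type and less RNA per cell cannot be told apart.

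Members were highest on the normal array in 46 of 56 cases, against 55.6% of the 14417 genes and transcripts above background on all 4 arrays. Which array is highest or lowest, here and below, depends on the scaling of the arrays, and these counts were not repeated with other settings. The scaling matters for them, since the members' median log2 difference in overloaded against normal muscle was -0.26 here and -0.078 in the authors' series table. Regenerated overloaded muscle gave the highest signal for 6 members (against 23.1% of all such genes), overloaded for 1 (against 11.45%) and regenerated for 3 (against 9.82%). Regenerated overloaded muscle also gave the lowest signal for 30 of the 56 members, against 36.4% of all such genes. By family, 8 of 9 Hspa genes, all 7 Hspb genes, all 3 Hsp90 genes, Hsph1, Hspd1, Hspe1, all 4 Dnaja genes, 8 of 11 Dnajb genes and 23 of 25 Dnajc genes were above background on every array. The 6 members on no array were Hspa4l, Dnajb7, Dnajb8, Dnajb13, Dnajc5b and Dnajc5g, with relative signals between 0.00417 and 0.0211. Just outside that limit, Hspa4l had 0.0211 in regenerated overloaded, 0.0103 in overloaded, 0.0116 in regenerated and 0.00968 in normal muscle. Just inside it, Dnajc27, a Rab-like GTPase with a J domain, had 0.0567 in regenerated overloaded, 0.0501 in overloaded, 0.0698 in regenerated and 0.0545 in normal muscle. Several well known chaperones (Hspa1a, Hspa1b, Hspa9 and Dnajb1) were not matched to a probe by accession and were not analysed here.

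**Figure D1:**
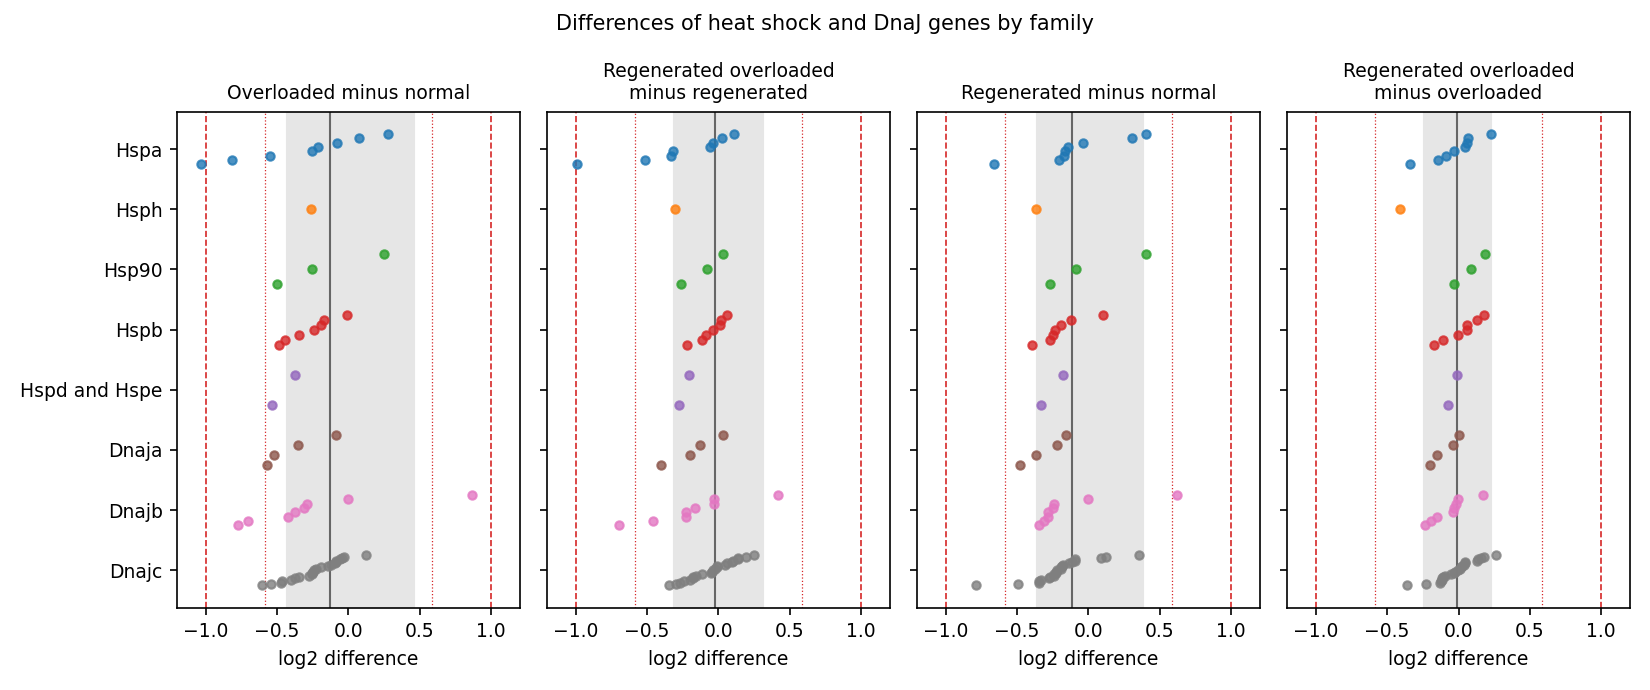
Log2 differences of the 56 members above background on all 4 arrays, 1 point per gene, by family, in each of the 4 comparisons. The solid line is the median and the grey band the range between percentiles 10 and 90 of all genes above background on the 4 arrays, and dotted and dashed red lines mark 1.5-fold and 2-fold. In overloaded against normal muscle 51 of 56 points lie below 0, against 33 of 56 in regenerated overloaded against overloaded muscle.

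Overload without an injection named in the labels was read from overloaded against normal muscle. Most chaperone genes had lower relative signals in overloaded muscle, by small amounts. The median difference of the 56 members was -0.26, against -0.13 for all 14417 genes above background on the 4 arrays, and 51 members were below 0, against 65.5% of all genes. That count depended on the scaling, with 38 below 0 in the authors' series table and 40 after centring on the median difference of all genes. Relative to the median of all genes, 40 of the 56 members (71.4%) were lower. Hspa1l alone was lower by 2-fold or more and no member was higher by that much (the background, the share of all 17308 genes measured in this pair of arrays that passed the same limit, was 0.763% lower and 2.37% higher). That background also holds genes above background on only 1 of the 2 arrays, unlike the 56 members. Among the 14417 genes above background on all 4 arrays, 77 were lower and 286 higher by 2-fold. At 1.5-fold, 483 of these 14417 were lower and 1037 higher. In the authors' series table the single member past 2-fold was instead Dnajb3, higher at 1.05. At 1.5-fold, 5 members were lower (background 3.2%) and 1 was higher (background 7.79%), against 3 lower and 1 higher in the authors' table and after centring, where Dnajb4 (-0.52 and -0.57) and Dnajc28 (-0.43 and -0.48) fell short of 1.5-fold. With normexp both also fell short (-0.55 and -0.56), and 3 members were lower.

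Hspa1l, an Hsp70 best known from testis, had a relative signal of 0.687 in regenerated overloaded, 0.760 in overloaded, 0.980 in regenerated and 1.55 in normal muscle. The normal array was highest and both overloaded arrays were lowest. Overloaded minus normal was -1.03 ± 0.0278 (technical SE, 10 spots per array), a 2.04-fold difference. The gene is nearly identical in sequence to Hspa1a and Hspa1b, so that the probe may not tell them apart. The size was under 2-fold with 5 of the 9 other settings, at -0.998 with quantile, -0.97 with cyclic loess and -0.90 with normexp background correction followed by quantile normalization, -0.85 in the authors' series table, and -0.90 after centring on the median difference.

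Hspa2, an Hsp70 needed for male meiosis and also made in other tissues, had 0.536 in regenerated overloaded, 0.678 in overloaded, 1.06 in regenerated and 1.19 in normal muscle. Both overloaded arrays lay below both arrays without overload. Its difference was -0.82 ± 0.0718 in overloaded against normal and -0.99 ± 0.0698 in regenerated overloaded against regenerated muscle. Hspa8, the constitutive Hsp70 of the cytosol whose promoter stands above, had 82.7 in regenerated overloaded, 79.4 in overloaded, 103 in regenerated and 116 in normal muscle, in the same high and low pairs. Overloaded minus normal was -0.55 ± 0.0751 on 1 spot per array, and all 4 probes of Hspa8 had the same sign. With the other settings this difference lay between -0.65 and -0.22.

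The Hsp110 proteins are the nucleotide exchange factors of Hsp70. Hsph1 had 0.150 in regenerated overloaded, 0.200 in overloaded, 0.186 in regenerated and 0.240 in normal muscle, with the regenerated overloaded array lowest and the normal array highest. Hspa4 had 7.44 in regenerated overloaded, 7.62 in overloaded, 7.64 in regenerated and 8.81 in normal muscle, where only the normal array stood away from the rest. Among the atypical Hsp70 genes, Hspa14, part of a ribosome-associated complex, had 1.83 in regenerated overloaded, 1.94 in overloaded, 1.79 in regenerated and 1.84 in normal muscle. Hspa13, a truncated Hsp70 of microsomes, had 1.05 in regenerated overloaded, 1.02 in overloaded, 0.972 in regenerated and 1.08 in normal muscle. For both genes the 4 arrays lay in a narrow band. Dnajc2, the ribosome-associated DnaJ partner of Hspa14, had 15.5 in regenerated overloaded, 15.4 in overloaded, 17.9 in regenerated and 22.5 in normal muscle, lowest in both overloaded groups. Hspa12a, a distant relative of the family, was dim at 0.107 in regenerated overloaded, 0.102 in overloaded, 0.111 in regenerated and 0.0841 in normal muscle, and its difference of 0.28 ± 0.278 in overloaded against normal muscle changed sign with other settings.

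The cytosolic Hsp90 genes were also lower in overloaded muscle. Hsp90ab1, the constitutive form, had 13.2 in regenerated overloaded, 13.5 in overloaded, 15.8 in regenerated and 19.1 in normal muscle, a difference of -0.50 in overloaded against normal muscle. The inducible form Hsp90aa1 had 7.001 in regenerated overloaded, 6.58 in overloaded, 7.41 in regenerated and 7.86 in normal muscle, a difference of -0.26. Each was highest on the normal array. For Hsp90aa1 this depended on the setting, since regenerated minus normal, -0.09 ± 0.0778, changed sign with another one. Hsp90b1 of the ER went the other way, with 1.92 in regenerated overloaded, 1.69 in overloaded, 1.88 in regenerated and 1.42 in normal muscle, lowest on the normal array and 0.25 ± 0.0591 in overloaded against normal muscle.

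All 6 small heat shock proteins listed for muscle (Hspb1, Hspb2, Hspb3, Hspb6, Hspb7 and Hspb8) were lower in overloaded than in normal muscle and also lower than the all-gene median. Their median difference was -0.29. Hspb3, a partner of Hspb2 in muscle, had 16.6 in regenerated overloaded, 16.7 in overloaded, 17.7 in regenerated and 23.3 in normal muscle, a difference of -0.48. Hspb2 had 9.48 in regenerated overloaded, 8.37 in overloaded, 9.43 in regenerated and 11.4 in normal muscle, a difference of -0.44. For both, the normal array was highest. The other 3 lay close together for Hspb3. For Hspb2 the overloaded array was lowest, and regenerated overloaded minus overloaded was 0.18 ± 0.0518. Hspb6 (Hsp20) had 62.1 in regenerated overloaded, 67.02 in overloaded, 67.4 in regenerated and 79.1 in normal muscle. Hspb1 (Hsp27), which protects actin filaments, had 39.6 in regenerated overloaded, 44.6 in overloaded, 46.2 in regenerated and 50.3 in normal muscle. These were differences of -0.24 and -0.17, and both changed sign with another setting. Hspb7, a cardiac and skeletal muscle form, had 5.24 in regenerated overloaded, 5.02 in overloaded, 5.37 in regenerated and 6.37 in normal muscle. Hspb8, the partner of Bag3, had 5.34 in regenerated overloaded, 5.12 in overloaded, 5.13 in regenerated and 5.86 in normal muscle, and the spread over its 4 arrays was the smallest of the 6. Alpha-B crystallin (Cryab), a small heat shock protein outside the naming rule, had 378 in regenerated overloaded, 358 in overloaded, 384 in regenerated and 434 in normal muscle, and its difference of -0.28 in overloaded against normal muscle changed sign with another setting.

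Among members of the mitochondria, 8 of 10 listed had a probe and were above background, and all 8 were lower than the all-gene median in overloaded against normal muscle, with a median of -0.47. The range over the settings was -0.52 to -0.29. Hspe1, the lid of the folding chamber, had 31.7 in regenerated overloaded, 31.9 in overloaded, 36.6 in regenerated and 46.2 in normal muscle, a difference of -0.53. Hspd1, the chamber itself, had 12.2 in regenerated overloaded, 12.9 in overloaded, 14.8 in regenerated and 16.7 in normal muscle, a difference of -0.37. For both genes of the shared promoter region the normal array was highest, the regenerated array next and both overloaded arrays lowest. Dnaja3 (Tid1), the DnaJ partner of the mitochondrial Hsp70, had 0.416 in regenerated overloaded, 0.478 in overloaded, 0.549 in regenerated and 0.709 in normal muscle, a difference of -0.57 ± 0.0794. Dnajc15, a DnaJ protein of the inner membrane import motor, had 8.84 in regenerated overloaded, 9.58 in overloaded, 10.5 in regenerated and 13.3 in normal muscle, a difference of -0.47. Dnajc19, its relative in the same motor, had 13.1 in regenerated overloaded, 14.3 in overloaded, 14.5 in regenerated and 17.1 in normal muscle. Dnajc28 had 0.394 in regenerated overloaded, 0.506 in overloaded, 0.447 in regenerated and 0.771 in normal muscle, with the normal array clearly above the other 3, at -0.61 ± 0.0718 in overloaded against normal muscle. The separate list of 11 other genes of mitochondrial protein quality control had a median of -0.22 in that comparison.

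DnaJ proteins of the cytosol included the lowest differences after Hspa1l and Hspa2. Dnajb5, a cytosolic DnaJ protein that in mouse heart cells binds the histone deacetylase HDAC4, had 1.04 in regenerated overloaded, 1.22 in overloaded, 1.68 in regenerated and 2.09 in normal muscle. The signal was lowest in regenerated overloaded muscle, then overloaded, then regenerated, and highest in normal muscle, and overloaded minus normal was -0.78 ± 0.0591. Dnajb4, another heat-inducible member of the same subfamily, had 0.809 in regenerated overloaded, 0.809 in overloaded, 1.11 in regenerated and 1.32 in normal muscle, with equal values in both overloaded groups and -0.70 ± 0.0621 in overloaded against normal muscle. Dnajb6, mutated in a human limb-girdle muscular dystrophy, had 8.51 in regenerated overloaded, 9.44 in overloaded, 9.95 in regenerated and 12.7 in normal muscle, a difference of -0.42. Dnaja4 had 3.46 in regenerated overloaded, 3.85 in overloaded, 3.97 in regenerated and 5.52 in normal muscle, a difference of -0.52. Dnaja2 had 2.75 in regenerated overloaded, 2.75 in overloaded, 3.01 in regenerated and 3.51 in normal muscle, a difference of -0.35. Each of these 3 was highest on the normal array. Dnaja1, with the heat shock element just after its start, had 4.44 in regenerated overloaded, 4.57 in overloaded, 4.34 in regenerated and 4.85 in normal muscle, all 4 within a narrow band. Dnajb2 had 1.43 in regenerated overloaded, 1.47 in overloaded, 1.60 in regenerated and 1.90 in normal muscle, a difference of -0.37. Dnajc5, the cysteine string protein of secretory vesicles, had 0.625 in regenerated overloaded, 0.676 in overloaded, 0.707 in regenerated and 0.805 in normal muscle, a difference of -0.25.

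The single member higher by 1.5-fold in overloaded muscle was Dnajb3, a DnaJ gene known mainly from testis, with 0.150 in regenerated overloaded, 0.134 in overloaded, 0.113 in regenerated and 0.0733 in normal muscle. The normal array was lowest and the regenerated overloaded array highest. Overloaded minus normal was 0.87 ± 0.148, and with other settings it lay between 0.38 and 1.05, short of 1.5-fold with normexp (0.38) and when both probes were averaged (0.53). The gene was dim on every array, and its other probe was not above background on the normal array.

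Members of the ER lay closer to the all-gene median. Of 13 listed, 11 were above background, and in overloaded against normal muscle only 5 of the 11 lay below the all-gene median, with a median difference of -0.09 that changed sign with another setting. Hspa5, the BiP gene, had 10.08 in regenerated overloaded, 8.59 in overloaded, 12.7 in regenerated and 10.3 in normal muscle, so that the regenerated array was highest and the overloaded array lowest. Its difference was -0.26 ± 0.0535 in overloaded against normal muscle. Dnajb11, a BiP partner, had 0.709 in regenerated overloaded, 0.725 in overloaded, 0.726 in regenerated and 0.728 in normal muscle, with nearly the same value on all 4 arrays. Dnajc3 had 1.04 in regenerated overloaded, 1.004 in overloaded, 0.970 in regenerated and 1.07 in normal muscle. Dnajc10, a disulfide reductase with a J domain, had 2.17 in regenerated overloaded, 2.11 in overloaded, 2.02 in regenerated and 2.16 in normal muscle. Dnajb9, a BiP partner that is induced by the unfolded protein response, had 0.608 in regenerated overloaded, 0.695 in overloaded, 0.711 in regenerated and 0.864 in normal muscle, highest on the normal array.

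None of the other members passed 1.5-fold in this comparison. Dnajc11, a mitochondrial DnaJ protein tied to cristae organisation, had 0.222 in regenerated overloaded, 0.230 in overloaded, 0.268 in regenerated and 0.304 in normal muscle, a difference of -0.40 in overloaded against normal muscle. Dnajc21, which acts in ribosome maturation, had 0.650 in regenerated overloaded, 0.631 in overloaded, 0.674 in regenerated and 0.816 in normal muscle, a difference of -0.37. Both were highest on the normal array. Dnajc16, dim on every array, had 0.0624 in regenerated overloaded, 0.0731 in overloaded, 0.0793 in regenerated and 0.0930 in normal muscle. Dnajb12, a membrane DnaJ protein of the ER, had 1.01 in regenerated overloaded, 1.02 in overloaded, 1.03 in regenerated and 1.25 in normal muscle, with the normal array above 3 nearly equal ones. Dnajc12, a co-chaperone of aromatic amino acid hydroxylases, had 0.542 in regenerated overloaded, 0.551 in overloaded, 0.547 in regenerated and 0.646 in normal muscle, in the same pattern. Dnajc4 had 1.80 in regenerated overloaded, 1.94 in overloaded, 1.81 in regenerated and 2.30 in normal muscle. Dnajc7, a partner of both Hsp70 and Hsp90, had 1.63 in regenerated overloaded, 1.78 in overloaded, 1.66 in regenerated and 1.90 in normal muscle. Dnajc8, a splicing-associated protein, had 13.6 in regenerated overloaded, 13.3 in overloaded, 14.7 in regenerated and 15.8 in normal muscle, lower with overload than without. Dnajc9, a histone chaperone partner, had 1.87 in regenerated overloaded, 1.99 in overloaded, 1.92 in regenerated and 2.08 in normal muscle. Dnajc24, which acts in diphthamide synthesis, had 0.523 in regenerated overloaded, 0.534 in overloaded, 0.474 in regenerated and 0.551 in normal muscle. These last genes, like Dnajc18 at 0.298 in regenerated overloaded, 0.271 in overloaded, 0.271 in regenerated and 0.309 in normal muscle, stayed in a narrow band. Dnajc17, whose probes disagreed most, had 1.95 in regenerated overloaded, 1.96 in overloaded, 2.02 in regenerated and 2.38 in normal muscle. The dim Hspb9, a testis form of the small heat shock proteins, had 0.0856 in regenerated overloaded, 0.0782 in overloaded, 0.0844 in regenerated and 0.0787 in normal muscle.

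**Figure D2:**
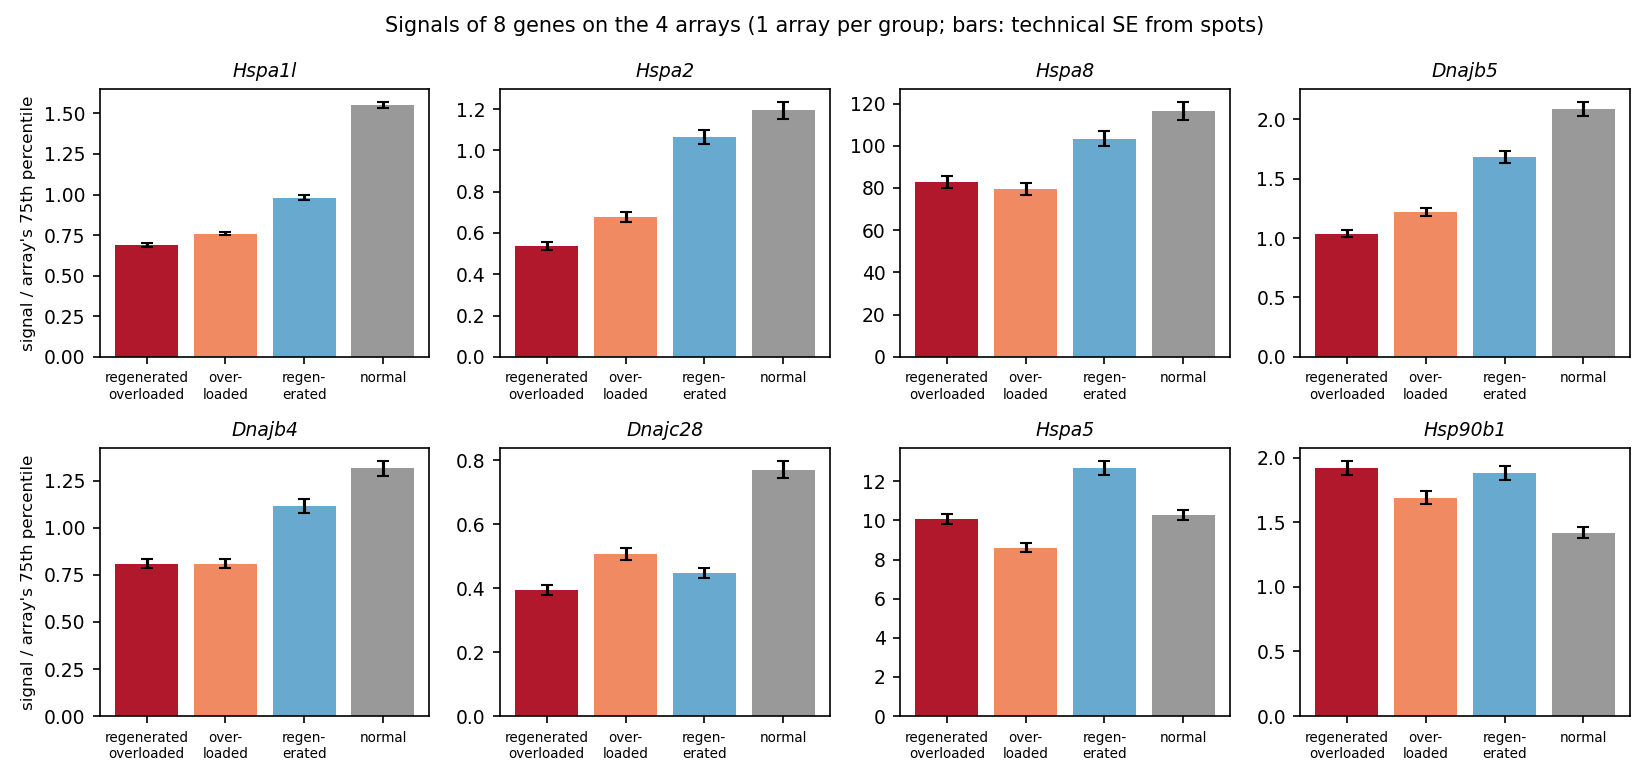
Relative signal (multiple of the array's 75th percentile, linear axis from 0) of 8 members on the 4 arrays, with technical SE bars from spots. Hspa1l, Hspa2, Hspa8, Dnajb5, Dnajb4 and Dnajc28 are highest on the normal array, Hspa5 on the regenerated array and Hsp90b1 on the regenerated overloaded array.

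Genes that work with the members were read as lists. Of 31 co-chaperones of Hsp70 and Hsp90, 28 were measured in overloaded against normal muscle (Bag4 above background on only 1 of these arrays), with a median of -0.26. Of these, 2 were lower by 1.5-fold (background 3.2%), the steroid receptor immunophilins Fkbp5 (-0.81) and Fkbp4 (-0.69). The 8 subunits of the cytosolic chaperonin CCT lay between -0.40 and -0.29. The heat shock factors Hsf2 (-0.52), Hsf4 (-0.42) and Hsf1 (-0.39), the transcription factors of the heat shock response, were lower, and Hsbp1, which binds them, was at 0.0016. The median of these 4 genes was -0.40, and between -0.40 and -0.22 over the settings, against -0.13 for all genes. The 23 measured genes of the list of other ER chaperones and the unfolded protein response had a median of -0.06, whose sign changed with another setting. Of these, 5 were higher by 1.5-fold (background 7.79%), namely Fkbp10 (1.097 ± 0.251), Serpinh1 (0.86), Eif2ak3 (0.80 ± 0.129), Pdia4 (0.70) and Ppib (0.60). On the normal array Fkbp10 (0.113) and Eif2ak3 (0.0758) were dim. Fkbp10, Serpinh1 (Hsp47) and Ppib are ER proteins that fold and modify collagen. The other 18 genes of that list lay between -0.55 (Ddit3, a transcription factor of ER stress) and 0.53 (Pdia3, a disulfide isomerase).

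Markers of other cell types also differed between the arrays. The summed relative signal of 7 fibroblast genes was 371 in regenerated overloaded, 277 in overloaded, 216 in regenerated and 109 in normal muscle. For 7 macrophage genes it was 50.04 in regenerated overloaded, 45.7 in overloaded, 43.0 in regenerated and 27.6 in normal muscle. For the 10 slow-fibre genes it was 2450 in regenerated overloaded, 2610 in overloaded, 2680 in regenerated and 3263 in normal muscle, and the sign of their median difference in overloaded against normal muscle, -0.31, changed with another setting. All genes of these 3 lists with a probe were above background. Brighter probes weigh more in these sums. In overloaded against normal muscle, 6 of the 7 macrophage genes were higher and Itgam was lower (-0.48). Itgam was also lower in regenerated overloaded against regenerated (-0.32) and in regenerated against normal muscle (-0.25). The part of these shifts in the members' lower values was not tested.

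**Figure D3:**
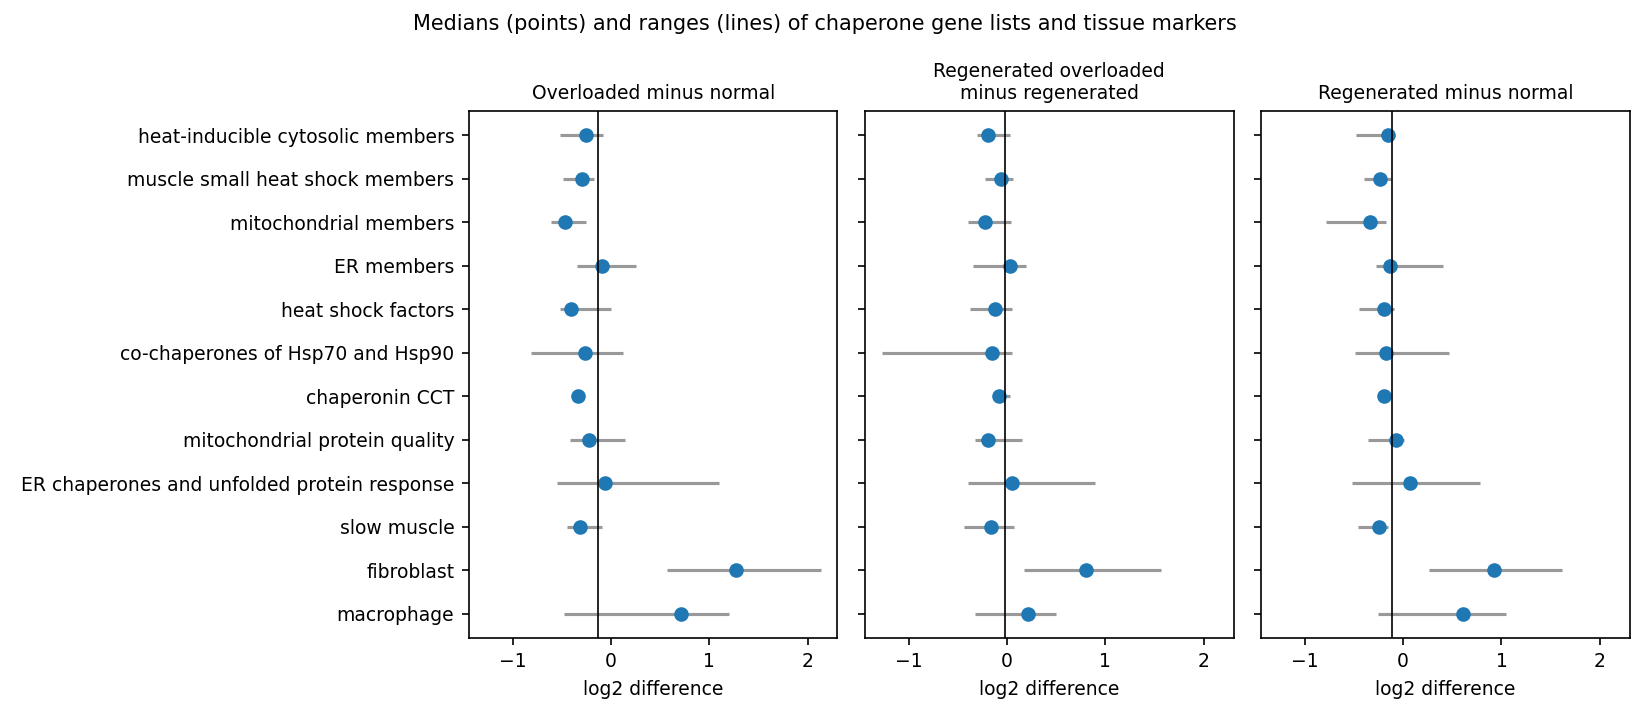
Median (point) and range (line) of the log2 difference (x axis) for lists of members, related genes and tissue markers in 3 comparisons, with the black line at the all-gene median. Mitochondrial members have the lowest medians among the member lists in overloaded against normal muscle (-0.47), and the ER members lie at -0.09.

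Regenerated overloaded muscle was compared with regenerated muscle to follow overload in muscle that had been injected. Chaperone genes were again mostly lower, with Hspa2 and Dnajb5 the lowest. The median of the members was -0.09, against -0.02 for all genes, and 40 of the 56 members were below 0, against 54.4% of all genes. The number below 0 was 34 in the authors' table. Relative to the all-gene median, 38 (67.9%) were lower. No member passed 2-fold (background 1.99% of 17208 genes), and 2 were lower by 1.5-fold, Hspa2 and Dnajb5 (background 2.38%), with none higher (background 4.69%). Among the 14417 genes above background on all 4 arrays, 33 were lower and 115 higher by 2-fold, and 234 lower and 439 higher by 1.5-fold. Hspa2 stood at -0.99 ± 0.0698, just short of 2-fold, and Dnajb5 at -0.70 ± 0.0605. Next came Hspa1l (-0.51), Dnajb4 (-0.46) and Dnaja3 (-0.40). With quantile normalization Hspa2 reached -1.02 and counted as 1 member past 2-fold.

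The mitochondrial members had a median of -0.23, the small heat shock proteins of muscle -0.06 and the ER members 0.03, and the signs of both of these small medians depended on the setting. Hspa8 was at -0.32, Hspd1 at -0.27 and Hspe1 at -0.21. Hspa5 was at -0.33 ± 0.0534, lower in regenerated overloaded than in regenerated muscle. On the higher side were Dnajb3 (0.42), Dnajc14, a membrane DnaJ protein of the secretory pathway (0.25), and Dnajc25 (0.19), whose sign changed with another setting. Dnajc14 had 1.29 in regenerated overloaded, 1.18 in overloaded, 1.08 in regenerated and 1.30 in normal muscle, with the regenerated array lowest. Dnajc25 had 0.309 in regenerated overloaded, 0.277 in overloaded, 0.271 in regenerated and 0.255 in normal muscle. Among the 28 measured co-chaperones, Fkbp5 was lower by more than 2-fold (-1.27) and Bag3 by 1.5-fold (-0.60), against 2.38% of all genes lower by 1.5-fold. Fkbp10 (0.89) was the single gene higher by 1.5-fold among the 23 measured on the list of other ER chaperones (background 4.69%).

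Both overload comparisons, which have no array in common, were set side by side. Across the 56 members their log2 differences had a Pearson r of 0.75 and a Spearman rho of 0.73, given as a description across genes that share the arrays. For all 14417 genes r was 0.65. Both differences were below 0 for 39 members (69.6%, against 46.8% of all genes), both above 0 for 4 and of opposite sign for 13. The difference in size was larger in normal muscle for 43 members (76.8%, against 69.8% of all genes). The overload difference of regenerated muscle, less that of normal muscle, had a median of 0.17 over the members and 0.09 over all genes. The members' median was 0.066 with normexp, 0.031 in the authors' table and 0.075 after centring. With the main scaling this difference was above 0 for 46 members (82.1%, against 63.8%), and no member passed 1.5-fold in it (background 4.52% of 14417 genes). The counts of 39, 43 and 46 members depend on the scaling of the arrays and were not repeated with other settings. With the median as low as 0.031 in the authors' table, these counts alone do not show smaller overload differences in regenerated muscle. The extremes of the difference between overload differences were Dnajb3 at -0.45 and Hspa1l at 0.52.

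**Figure D4:**
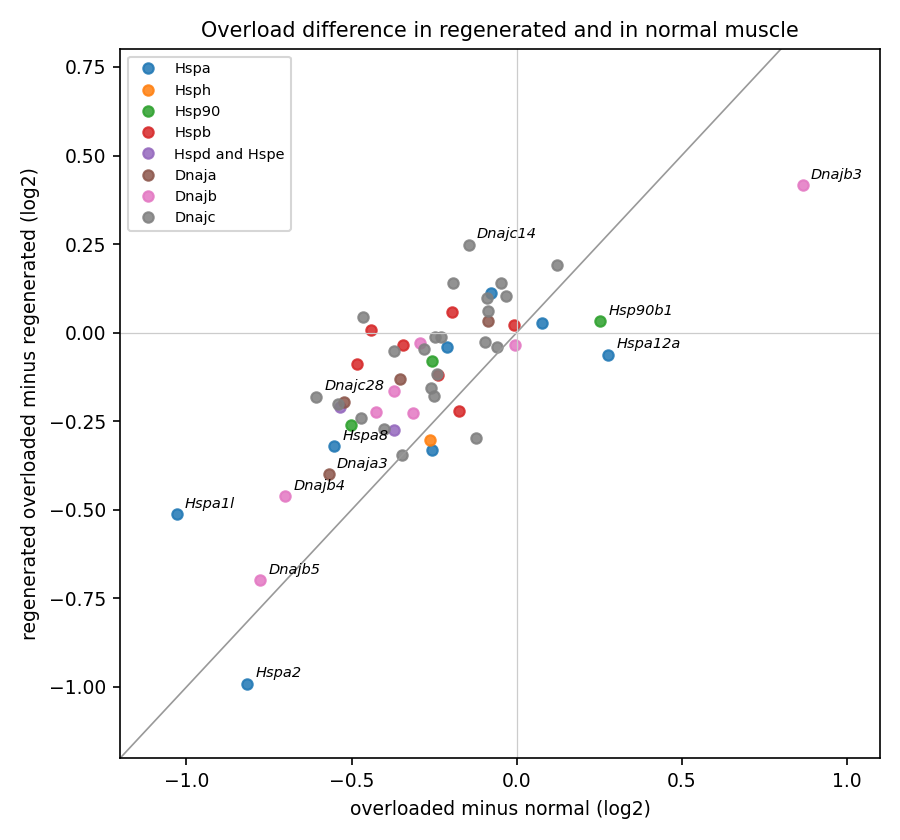
Log2 difference with overload in regenerated muscle (y axis) against that in normal muscle (x axis), 1 point for each of the 56 members coloured by family, with the diagonal marking equal differences. Hspa2 and Dnajb5 lie far below 0 on both axes, and 39 members lie below 0 on both.

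Regenerated against normal muscle, a pair that shares the normal array with the overload comparison above, showed the state 8 weeks after the injection. The members' median difference was -0.22, against -0.12 for all genes, 48 of the 56 were below 0, against 67.2% of all genes, and 42 (75%) were below the all-gene median. In the authors' table the median was -0.081 and 40 members were below 0, and with cyclic loess 39 were. No member passed 2-fold (background 1.92% of 16911 genes). At 1.5-fold, Dnajc28 (-0.79 ± 0.0729) and Hspa1l (-0.66 ± 0.0286) were lower (background 2.34%) and Dnajb3 (0.62 ± 0.147) was higher (background 5.62%). Among the 14417 genes above background on all 4 arrays, 55 were lower and 138 higher by 2-fold, and 318 lower and 733 higher by 1.5-fold. Dnajb3 fell short of 1.5-fold with normexp (0.26), quantile (0.53), cyclic loess (0.50) and the mean over its probes (0.50). Hspa1l did so with normexp (-0.55), in the authors' table (-0.52) and after centring (-0.55). Hspa2, so much lower with overload, differed by -0.17 ± 0.0689 here. Dnajc30, a mitochondrial DnaJ protein, had a difference of -0.49 ± 0.175, with 0.111 in regenerated overloaded, 0.109 in overloaded, 0.107 in regenerated and 0.151 in normal muscle. Dnaja4 was at -0.48. The mitochondrial members had a median of -0.34, and all 8 were below the all-gene median.

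In regenerated against normal muscle some chaperones of the ER were on the higher side. Hspa5 was at 0.30 ± 0.0550 and Hsp90b1 at 0.40 ± 0.0602. The ER members as a list had a median of -0.14. The 23 measured genes on the list of other ER chaperones and the unfolded protein response had a median of 0.07, with 15 above 0 and 8 below. Atf4 was the lowest of them (-0.52). Serpinh1 (0.78) and Eif2ak3, the ER stress kinase PERK (0.70 ± 0.125), were higher by 1.5-fold (background 5.62%). Eif2ak3 was dim on the normal array (0.0758). Hspa12a (0.40 ± 0.260) was also on the higher side and changed sign with another setting. The small heat shock proteins of muscle had a median of -0.24, with Hspb3 at -0.40 and Hspb1 at -0.12, and the sign of Hspb1 changed between settings.

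Regenerated overloaded against overloaded muscle was the pair in which no member passed 1.5-fold. The median was -0.02 for the members and -0.01 for all genes, 33 of 56 members (58.9%) were below 0, against 52.4% of all genes, and the count of 0 members stood beside a background of 5.37% of 17493 genes at 1.5-fold and 1.7% at 2-fold. That background also holds genes above background on only 1 of the 2 arrays, unlike the 56 members. Among the 14417 genes above background on all 4 arrays, 146 were lower and 206 higher by 1.5-fold, and 23 lower and 50 higher by 2-fold. The lowest members were Hsph1 (-0.41 ± 0.127), Dnajc28 (-0.36 ± 0.0772) and Hspa2 (-0.34 ± 0.0727). The highest were Dnajc22 (0.27 ± 0.0279), Hspa5 (0.23 ± 0.0518) and Hsp90b1 (0.18 ± 0.0570). Dnajc22 had 1.11 in regenerated overloaded, 0.920 in overloaded, 1.06 in regenerated and 0.976 in normal muscle. Of the 3 members with an ER stress element, Hspa5 and Hsp90b1 were higher here and also in regenerated against normal muscle, a pair with no array in common with this one, whereas Dnajc3 was at 0.05 here and -0.14 there.

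Members with the elements shown above were read together. The 5 with a heat shock element had a median of -0.37 in overloaded against normal muscle, from -0.55 (Hspa8) to -0.09 (Dnaja1), and 5 of 5 were below 0, as were 51 of the 56 members and 65.5% of all genes. Dnaja1 was above 0 with another setting. Their median was -0.27 in regenerated overloaded against regenerated muscle, with 4 of 5 below 0, and -0.17 in regenerated against normal muscle, where Hspa8 and Hspd1 changed sign with another setting. In regenerated overloaded against overloaded muscle it was -0.04. The 3 with an ER stress element had medians of -0.09, 0.03 and 0.30 in those comparisons, and of 0.18 in regenerated overloaded against overloaded muscle. Hspa1l, Hspa2, Dnajb5 and Dnajc28 had no match to the full heat shock element in their windows.

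Of the 9 members with more than 1 probe above background on all arrays, probes disagreed in sign for Dnajc14 in overloaded against normal muscle, for Dnajc17 in regenerated overloaded against regenerated muscle, and for Dnajb2, Dnajc17 and Hspe1 in regenerated overloaded against overloaded muscle. In regenerated against normal muscle no such gene disagreed.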

How the data were processed

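Total RNA was extracted with Isogen, labelled with Cy3 (Low Input Quick Amp) and read on Agilent arrays, per the labels' protocols. The deposited scanner files give each spot's processed signal as a background-subtracted intensity, with flags coded 0 or 1 (other), made by Feature Extraction 11.5.1.1 per the file headers (10.10.1.1 per the submitters' processing notes). The deposited series table holds an intensity equal to the processed signal times 1 constant per array (2.02 regenerated overloaded, 1.95 overloaded, 2.10 regenerated, 2.14 normal), whose basis is unknown.

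Outlier spots (406 to 451 per array) were dropped and no spot was saturated. The log2 signal was reduced by that of the array's 75th percentile and averaged over spots, and the brightest probe stood for a gene. By accession, 18643 of 30367 probes matched 15637 symbols of a GRCr8 table used for names alone, because the arrays are annotated on rn4. The promoter windows are those of GRCr8. A gene was measured in a comparison if 1 or both of its arrays were well above background. Counts at 2-fold and 1.5-fold are descriptions, and no p-value is given. Technical SEs use the SD between spots in 20 signal bins. Named in the text are a set list of members, 31 of 35 of which had a probe, and the 5 highest and 5 lowest members of each comparison. The other members were added so that each is accounted for. Members, lists and alternatives were chosen with earlier results of these data known. R 4.3.3 with limma 3.58.1 (for alternatives only) and Python 3.11.15 were used.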

Additional observations from a re-analysis of the deposited data

Results flagged for a closer look

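For 3 members the same contrast had opposite signs in 2 kinds of muscle, each past 2 technical SEs. Opposite signs without that limit were more common. These signs depend on the scaling, so values relative to the all-gene median are given too. With overload, Dnajc14 was at 0.25 in regenerated and -0.15 in normal muscle, a gap of 0.39, and its probes disagreed in sign in normal muscle. Relative to the all-gene median it was at 0.27 and -0.016. With regeneration, Dnajc14 was at 0.13 in overloaded and -0.27 in muscle without overload, again a gap of 0.39, the same quantity read the other way, and at 0.14 and -0.15 relative to all genes. Dnajc22, a DnaJ protein with several membrane spans, was at 0.06 with overload in regenerated and -0.09 in normal muscle, a gap of 0.15, but at 0.082 and 0.043 relative to all genes, the same sign. Hspb2 was at 0.18 with regeneration in overloaded and -0.27 in muscle without overload, a gap of 0.45, and at 0.19 and -0.15 relative to all genes. None of these gaps was tested, because every group has 1 array.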

How the results depend on the processing

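The arrays gave 1 value per group, so that the number of arrays limits every statement, and small differences depend on the scaling. No paired analysis was possible because each group has 1 array. Of 9 alternatives, 1 (centring each comparison on the median difference of all genes) was added after seeing the data. The others were also chosen with earlier results of these data known.

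Over the members in overloaded against normal muscle, the median of -0.26 was -0.19 with normexp background correction and quantile normalization, -0.20 with quantile and -0.19 with cyclic loess normalization, -0.078 in the authors' series table and -0.13 after centring. The median of all genes went up to 0.05 over these settings, and relative to it the members' median stayed between -0.15 and -0.12. The count of members past 2-fold, 1 as reported, was 0 with normexp, with quantile, with cyclic loess and with centring, and 4 with no filter on dim probes, and in the authors' table the 1 was Dnajb3, higher, in place of Hspa1l. The count past 1.5-fold, 6 as reported (5 lower and 1 higher), was 3 with normexp (3 lower, 0 higher), 3 lower and 1 higher in the authors' table and after centring, and 8 lower and 1 higher with no filter.

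For members in regenerated against normal muscle, the median of -0.22 was -0.13 with normexp, -0.14 with quantile, -0.10 with cyclic loess, -0.081 in the authors' table and -0.11 after centring, and between -0.11 and -0.05 relative to all genes. The count past 1.5-fold, 3 as reported (2 lower and 1 higher), was 1 with normexp (1 lower), 6 with no filter, 0 higher with quantile, cyclic loess and the mean over probes, and 1 lower and 1 higher in the authors' table and after centring. In regenerated overloaded against regenerated muscle, quantile normalization put 1 member past 2-fold, against 0 as reported. In regenerated overloaded against overloaded muscle, no filter put 1 member past 1.5-fold and 1 past 2-fold, against 0. The members' median difference of overload differences, 0.17, was 0.066 with normexp, 0.031 in the authors' table and 0.075 after centring. Among named members the sign changed with at least 1 setting for 7 of 35, 6 of 36, 9 of 36 and 6 of 35 in overloaded against normal, regenerated overloaded against regenerated, regenerated against normal and regenerated overloaded against overloaded muscle. The cause of these changes was not tested.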

Other observations

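The chaperonin CCT, the cytosolic chamber that folds actin and tubulin, had a median over its 8 subunits of -0.33 in overloaded against normal, -0.08 in regenerated overloaded against regenerated, -0.19 in regenerated against normal and 0.06 in regenerated overloaded against overloaded muscle. In the first of these the 8 subunits spanned -0.40 to -0.29, and relative to all genes the median was -0.20. In the promoter windows, the shorter heat shock motif of 1 GAA and 1 TTC unit with NN between them was found for 14 of 49 members (28.6%), against 15.9% of all windows, and the CCAAT box for 22 of 49 (44.9%), against 37.5%. The full heat shock element was also present in the windows of the related genes Cct4, Chordc1 and Serpinh1, and the ER stress element in those of Calr, Canx, Creld2 and Xbp1.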
